A study of Mus musculus with 12 samples.

Results

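The genes described here are those encoded on the mouse mitochondrial genome, chosen as every gene whose symbol begins with mt-. The deposited tables hold 37 of them among 49585 genes, namely 13 protein-coding genes, 2 ribosomal RNA (rRNA) genes, and 22 transfer RNA (tRNA) genes. Their RNA was measured by RNA-seq in the adrenal cortex of 12 male C57BL/6J mice, 1 library per mouse, to follow how diet acts on the gland. From 6 weeks of age, 4 mice were fed a normal diet (ND, 10% of energy from fat) and 4 a high-fat diet (HFD, 60% of energy from fat) for 20 weeks. The 4 mice of the third group (HFD+IPE) received the HFD for 20 weeks, with icosapent ethyl, a purified ethyl ester of the omega-3 fatty acid EPA, mixed into it for the last 10 weeks. The labels give the genotype Fads2-/- for all 12 mice, whereas the methods describe wild-type mice, and each mouse had between 22359 and 104974 counts on *Fads2*. The cortex was dissected away from the medulla by hand.

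The mitochondrial genome is a small circle that is copied and transcribed inside the organelle, apart from the nuclear chromosomes. Both of its strands are transcribed into long precursors, from which the tRNAs, lying like punctuation between the other genes, are cut out so that mRNAs and rRNAs are released. The proteins it encodes are core subunits of respiratory complexes I, III, and IV and of ATP synthase (complex V), while the RNA polymerase, the processing enzymes, and most respiratory subunits are encoded in the nucleus. In the adrenal cortex, mitochondria also hold the first and last enzymes of steroid hormone synthesis.

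On the GRCm38 sequence, the strand taken as the plus strand holds the genes of 12 mRNAs, both rRNAs, and 14 tRNAs, and the minus strand those of *mt-Nd6* and 8 tRNAs. The genes are packed tightly, and some of them overlap. The 43 bases shared by *mt-Atp8* and *mt-Atp6* (MT:7927-7969) and the 7 bases shared by *mt-Nd4l* and *mt-Nd4* (MT:10167-10173) are shown because a read there belongs to both genes, with the start codon of the downstream gene and the stop codon of the upstream gene in capitals.
mt-Atp8/mt-Atp6 overlap: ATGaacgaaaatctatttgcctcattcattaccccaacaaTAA
mt-Nd4l/mt-Nd4 overlap: ATGcTAA

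The annotated genes of *mt-Co3*, *mt-Nd4*, and *mt-Cytb* end in a single t beyond their last whole codon, the form in which the stop codon is completed only when the mRNA receives its poly(A) tail. The 3 tRNA genes whose counts are given below in detail are those of isoleucine (*mt-Ti*, MT:3706-3774), methionine (*mt-Tm*, MT:3845-3913), and tryptophan (*mt-Tw*, MT:4950-5016), printed here with the bases they share with a neighbour on the same strand in capitals.
mt-Ti: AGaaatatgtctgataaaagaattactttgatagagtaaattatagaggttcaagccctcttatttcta
mt-Tm: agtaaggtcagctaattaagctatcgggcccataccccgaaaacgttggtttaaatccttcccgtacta
mt-Tw: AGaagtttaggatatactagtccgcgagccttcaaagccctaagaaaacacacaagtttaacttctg

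Each library held 34785979 to 67295963 counts on genes. Depth limited the precision of the tRNA genes and of mRNA genes with few counts, such as *mt-Nd4l* with 6 to 27 and *mt-Atp8* with 15 to 62 counts per mouse. All 10 markers of adrenocortical cells were expressed, and their summed level was 45100 to 74090 CPM in ND, 59670 to 102800 CPM in HFD, and 61290 to 96850 CPM in HFD+IPE mice (CPM, counts-per-million of a library size scaled by the TMM method). The 12 markers of medullary chromaffin cells were present too, with none at 0, at a summed 6475 to 22950, 3227 to 10330, and 5613 to 11040 CPM in the same groups. In such bulk tissue, fewer cells of a type and less RNA per cell cannot be told apart. Chromaffin markers had a median log2 fold change of -1.28 in HFD versus ND mice with 12 of 12 lower, adrenocortical markers one of 0.50 with 10 of 10 higher, and in neither list did a gene pass the threshold. The medians of the other marker lists were 0.31 (adipocyte, 9 genes), -0.63 (macrophage, 7 genes), -0.01 (endothelial, 6 genes), and -0.59 (erythroid, 5 genes). In the same order, 6, 1, 2, and 0 of their genes were higher and 3, 6, 4, and 5 lower. Of the macrophage markers 3 passed the threshold, where 1.45% of all genes did, namely *Cd68*, *C1qa*, and *C1qc* with log2 fold changes of -1.25 ± 0.17, -0.74 ± 0.11, and -0.80 ± 0.12 (adjusted p = 0.0376 each). The part of these cell types in the values below was not tested.

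In counts that leave out reads fitting several places, as described below, the 37 genes together took between 1.84% and 3.23% of a library. Their share was 2.22% ± 0.31 (SD, n = 4) in ND, 2.58% ± 0.62 in HFD, and 2.48% ± 0.19 in HFD+IPE mice, and the groups overlapped. Almost all of it came from 8 genes. Compared per length, *mt-Co1*, the catalytic subunit of complex IV, was highest in ND mice at 4566 ± 596 CPM per kb, followed by *mt-Cytb*, the only subunit of complex III encoded here (2999 ± 490), and the complex I subunits *mt-Nd1* (2924 ± 623) and *mt-Nd2* (2639 ± 457). Among these last 3 genes, the means lay closer together than the spread between mice. Below them came *mt-Rnr1* (1242 ± 236) and *mt-Rnr2* (1041 ± 230), the rRNAs of the small and large mitochondrial ribosomal subunits, and then *mt-Nd4* (908 ± 187) and *mt-Nd5* (734 ± 164), also of complex I. The ratio of both rRNAs to all mRNAs was 0.152 ± 0.018 in ND, 0.153 ± 0.010 in HFD, and 0.148 ± 0.012 in HFD+IPE mice. The library kit was one for total RNA, and whether and how rRNA was removed is not given in the sources used here, so this ratio describes the libraries.

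The other 7 mRNA genes were lower by orders of magnitude. *mt-Nd6*, the complex I subunit on the minus strand, was at 16.8 ± 4.0 CPM per kb in ND mice. The 6 genes that lie side by side between *mt-Co1* and *mt-Nd4* were lower still, at 5.96 ± 1.06 CPM per kb for *mt-Co2*, 3.68 ± 1.19 for *mt-Atp8*, 5.05 ± 1.38 for *mt-Atp6*, 7.53 ± 2.67 for *mt-Co3*, 8.02 ± 0.99 for *mt-Nd3*, and 0.740 ± 0.091 for *mt-Nd4l*. These 6 encode subunits of complex IV, complex V, and complex I, and in every mouse they held only 0.0603% to 0.118% of all counts on mitochondrial protein-coding genes. The plot of levels by genome position shows the step down after *mt-Co1* and the step up at *mt-Nd4* in each of the 12 mice.

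**Figure D1:**
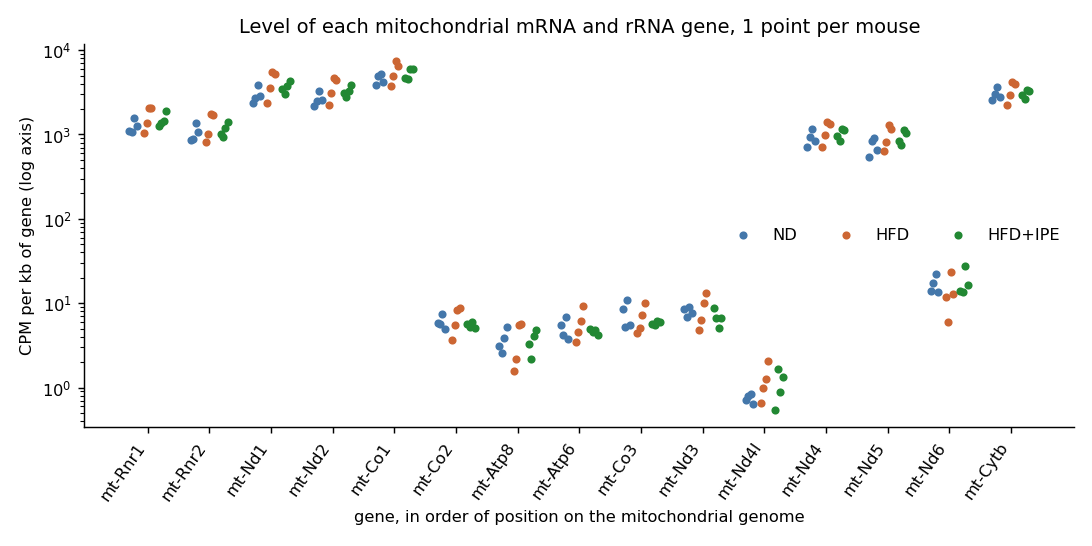
Level of the 13 mRNA and 2 rRNA genes in CPM per kb of gene (log axis) against their order on the mitochondrial genome, 1 point per mouse, coloured by group. *mt-Co2* to *mt-Nd4l* and *mt-Nd6* lie far below the other genes, which start at about 734 CPM per kb in the ND mean of *mt-Nd5*.

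The low stretch has a near-identical counterpart in the nuclear genome. A sequence comparison of the mitochondrial transcripts with all annotated nuclear transcripts (at least 95% identity over at least 100 bases) found 11 nuclear genes, all annotated as pseudogenes. Of these, 7 lie side by side on the minus strand of chromosome 1 (1:24611535-24616197), in the order of MT:6390-11042. *Gm28661* matched 681 bases of *mt-Co2* without a mismatch, *Gm10925* matched 678 bases of *mt-Atp6*, *Gm28437* 783 bases of *mt-Co3*, *Gm10222* 294 bases of *mt-Nd4l*, and *Gm28439* the first 876 bases of *mt-Nd4*, all at 100% identity. *Gm28438* differed from *mt-Nd3* by T3C, and *Gm29216* from the last 483 bases of *mt-Co1* by A1066T (positions from 1 at the start of the gene, mitochondrial base first). The start of that last match is shown, with the differing base in capitals, because it is the only mismatch by which a read could be placed within these 483 bases.
mt-Co1 stretch (MT:6390-6479): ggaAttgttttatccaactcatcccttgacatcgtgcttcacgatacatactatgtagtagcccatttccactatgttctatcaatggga
Gm29216 stretch (1:24616099-24616188): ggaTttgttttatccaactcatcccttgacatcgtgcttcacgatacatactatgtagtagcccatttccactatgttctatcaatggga

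The gaps between the chromosome 1 pseudogenes were 140, 233, 2, 69, and 74 bases long, against 140, 233, 2, 69, and 73 bases between the matching parts of the mitochondrial genes, and the copies of *mt-Nd4l* and *mt-Nd4* overlapped as the originals do. The gap of 233 bases is where *mt-Atp8* lies on the mitochondrial genome. No annotated nuclear transcript covers that gap, and the nuclear sequence in it was not examined here. Of the stretches of 75 bases, the read length, within each gene, 99.5% of those in *mt-Co2*, 99.5% in *mt-Atp6*, 99.9% in *mt-Co3*, 97.8% in *mt-Nd3*, and 98.7% in *mt-Nd4l* had an exact match in a nuclear pseudogene. The share was 61.5% in *mt-Nd4*, 39.8% in *mt-Co1*, 5.71% in *mt-Nd2*, and 0.457% in *mt-Nd5*, and it was 0% in *mt-Nd1*, *mt-Cytb*, *mt-Nd6*, *mt-Atp8*, and both rRNA genes.

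**Figure D2:**
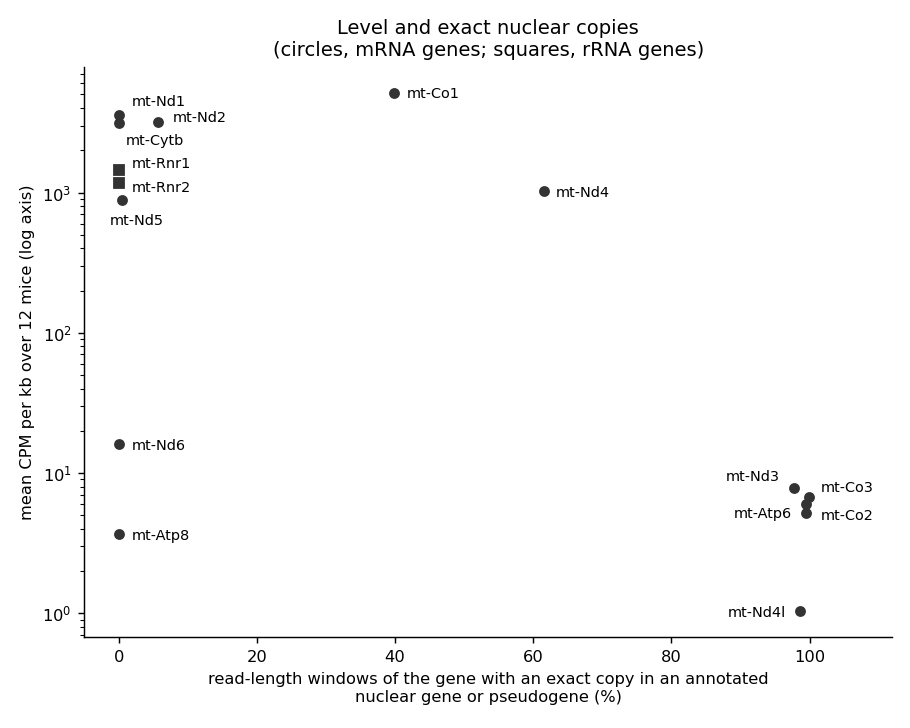
Mean level over the 12 mice in CPM per kb (log axis) against the share of read-length stretches of the gene that have an exact match in an annotated nuclear pseudogene. The 5 genes with 97.8% or more lie at the bottom right, and *mt-Nd6* and *mt-Atp8* are low with a share of 0%.

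The authors counted only reads with an alignment quality of at least 20, and STAR gives reads that fit several places a quality below that limit. Levels of *mt-Co2*, *mt-Atp6*, *mt-Co3*, *mt-Nd3*, *mt-Nd4l*, and the pseudogenes are therefore uncertain. That of *mt-Atp8*, without a match in annotated nuclear transcripts, is uncertain too, because the nuclear sequence in the gap was not examined. The mitochondrial share of counts, the ratio of rRNAs to mRNAs, and the shares of mRNA genes given below leave out the same reads. The part of read assignment in the low values and in these shares was not tested. Of the low genes, 5 match a pseudogene on chromosome 1, and these 5 genes summed to 561 to 967 counts per mouse in ND, 475 to 1111 in HFD, and 531 to 856 in HFD+IPE mice. Their 5 pseudogenes summed to 543 to 741, 405 to 839, and 511 to 892 counts in the same groups. The other pseudogenes there were far below the genes they match, with 93 to 247 counts per mouse for *Gm29216* against 266033 to 568244 for *mt-Co1*, and 18 to 60 for *Gm28439* against 44479 to 97861 for *mt-Nd4*. The highest pseudogene means over all mice were 4.89 CPM for *Gm10925*, 4.28 for *Gm28437*, 3.42 for *Gm29216*, 3.28 for *Gm28661*, and 1.19 for *Gm28438* on chromosome 1, and 4.42 for *Gm13340* (97.6% identical to *mt-Co1*) and 2.50 for *Gm13341* (95.9% identical to *mt-Co2*) on chromosome 2. The remaining 4, *Gm28439*, *Gm13339*, *Gm10222*, and *Gm4076*, were at 0.825, 0.686, 0.138, and 0.124 CPM. Adding all 11 to the 37 genes changed the mitochondrial share of counts from 2.218% to 2.220% in ND, from 2.579% to 2.582% in HFD, and from 2.485% to 2.487% in HFD+IPE mice. Reads that fit a gene and a pseudogene equally well are missing from both shares. This addition therefore cannot show how much the copies affect the share.

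For *mt-Co1* and *mt-Nd4*, only part of the gene lacks a match. Per 1000 stretches of 75 bases without an exact match, *mt-Co1* was at 7971 ± 1041 CPM in ND mice, *mt-Cytb* at 3207 ± 524, *mt-Nd1* at 3169 ± 675, *mt-Nd2* at 3013 ± 522, *mt-Nd4* at 2493 ± 514, and *mt-Nd5* at 768 ± 172. On this scale *mt-Nd4* moved up from the level of *mt-Nd5* to within 1 SD of *mt-Nd2*, while *mt-Co1* stayed highest and *mt-Nd5* lowest of these 6. By the same measure *mt-Nd6* was at 19.6 ± 4.6 and *mt-Atp8* at 5.78 ± 1.87 CPM. The value of *mt-Atp8* is not comparable with the others. Only 31.65% of the positions at which a read touches *mt-Atp8* touch no second gene on its strand, against 87.52% for *mt-Nd6*. Matches outside annotated transcripts were not examined.

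The tRNA genes were measured poorly. They are 59 to 75 bases long, none longer than a read, and a read that touches a second gene on the same strand was not counted. For 8 of the 22, every full-length read would touch a second gene, and all 8 were at 0 in the 12 mice. Of the 14 others, 3 were also at 0 in all mice, among them *mt-Td*, the aspartic acid tRNA in the 140 bases between *mt-Co1* and *mt-Co2*. A count of 0 allows up to 3 counts, which covers counting error only. Depending on the library, this is 0.0446 to 0.0862 counts-per-million of the library total without TMM scaling. Another 5 had at most 6 counts in any mouse. The 22 genes summed to 107 to 417 counts per mouse, and *mt-Tw* alone held 1146 of the 2153 counts over all mice (53.2%). *mt-Tt* (threonine, 333 counts) and *mt-Tm* (206 counts) followed.

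The 67 bases of *mt-Tw* do not hold a read of 75 bases. All 65 positions at which a full-length read would be counted to *mt-Tw* run past its 3′ end, into the stretch opposite the minus-strand tRNA genes *mt-Ta* and *mt-Tn*. The same holds for the 63 positions of *mt-Ti*, which run past its 3′ end opposite *mt-Tq*, whereas the 65 positions of *mt-Tm* begin before its 5′ end. The counts of these 3 genes thus came from RNAs longer than the tRNA, or from reads trimmed to less than their full length.

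In HFD versus ND mice, none of the 20 genes that passed the filter on low counts (13 mRNA, 2 rRNA, and 5 tRNA genes) differed at an adjusted p below 0.05 by the quasi-likelihood test of edgeR, adjusted for the 15909 genes tested, of which 1.45% passed. At an unadjusted p below 0.05 it was 1 of the 20, *mt-Tw*, against 24.8% of all genes tested. DESeq2 called this same gene at an adjusted p below 0.05, among 1933 genes that it called in all. Fitted log2 fold changes of the 13 mRNA genes had a median of 0.20, against -0.01 over all genes tested, and 11 of the 13 were above 0. With library totals in place of TMM factors, the median over all genes moved from -0.01 to -0.11, that of the 13 genes to 0.07, and 9 of the 13 stayed above 0. Without HFD mouse 4, their median was 0.08, and without HFD mouse 1 it was 0.39.

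The abundant mRNAs varied together from mouse to mouse. *mt-Nd1* was at 2250, 2600, 3645, and 2699 CPM in ND mice 2, 5, 6, and 7. In HFD mice 1 to 4 it was at 2287, 3440, 5260, and 5001 CPM. In HFD+IPE mice 1 to 4 it was at 3314, 2895, 3599, and 4077 CPM. HFD mice 3 and 4 were thus above all others and HFD mouse 1 was within the low end of the ND mice, so that the groups overlapped. The log2 fold change of HFD versus ND mice was 0.51 ± 0.27 (SE; adjusted p = 0.263).

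HFD mice 3 and 4 were the highest 2 of the 12 mice for each of the 6 abundant mRNAs and both rRNAs, and HFD mouse 1 was the lowest or next to lowest for each. Between the lowest and the highest mouse, the levels differed 2.34-fold for *mt-Nd1*, 2.16-fold for *mt-Nd2*, 2.01-fold for *mt-Nd4*, 2.41-fold for *mt-Nd5*, 1.90-fold for *mt-Cytb*, 1.96-fold for *mt-Co1*, 1.98-fold for *mt-Rnr1*, and 2.19-fold for *mt-Rnr2*. HFD mice 3 and 4 also had the highest summed adrenocortical markers (102300 and 102800 CPM), HFD mouse 1 had the lowest of its group (59670 CPM), and ND mouse 2, which was lowest for 4 of these mRNAs, had the lowest of all mice (45100 CPM). The part of cell composition in these levels was not tested.

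**Figure D3:**
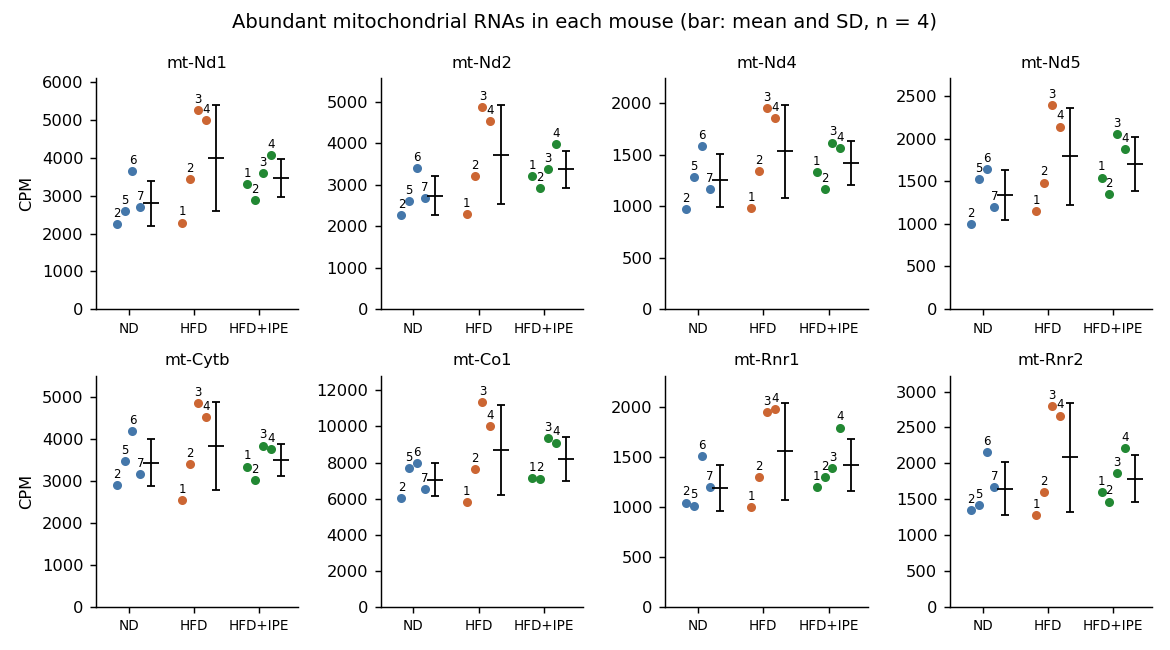
Level in CPM of the 6 abundant mRNAs and both rRNAs in each mouse, with the replicate number above each point and the mean and SD of the 4 mice beside each group. HFD mice 3 and 4 are the highest points in every panel, and HFD mouse 1 lies among the lowest.

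Among the complex I subunits, the log2 fold changes of HFD versus ND mice were 0.45 ± 0.24 for *mt-Nd2* (adjusted p = 0.278), 0.29 ± 0.23 for *mt-Nd4* (0.465), and 0.42 ± 0.25 for *mt-Nd5* (0.323). *mt-Nd3* and *mt-Nd4l*, both within the duplicated stretch, had 0.08 ± 0.31 and 0.73 ± 0.37, the latter on 6 to 27 counts per mouse. In complex IV, *mt-Co1* had 0.30 ± 0.21 (0.404), *mt-Co2* 0.15 ± 0.29, and *mt-Co3* -0.17 ± 0.33. The ATP synthase subunits *mt-Atp6* and *mt-Atp8* had 0.20 ± 0.32 and 0.0032 ± 0.449, and the rRNAs 0.39 ± 0.23 (*mt-Rnr1*) and 0.34 ± 0.27 (*mt-Rnr2*). Each of these values was within 2 SE of 0, and in each case the groups overlapped.

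*mt-Cytb* was at 2895, 3473, 4194, and 3162 CPM in ND mice 2, 5, 6, and 7 and at 2549, 3397, 4850, and 4514 CPM in HFD mice 1 to 4. Its log2 fold change was 0.16 ± 0.21 (adjusted p = 0.686), the smallest among the 6 abundant mRNAs. Of all counts on mitochondrial protein-coding genes, *mt-Cytb* held 18.8%, 18.1%, 18.7%, and 18.1% in ND mice 2, 5, 6, and 7. It held 16.9%, 16.6%, 15.8%, and 16.1% in HFD mice 1 to 4. In HFD+IPE mice 1 to 4 the share was 16.8%, 16.4%, 16.1%, and 15.4%. All 8 mice on HFD, with or without icosapent ethyl, lay below all 4 ND mice. The coefficient of variation of this share was 1.98% in ND, 3.08% in HFD, and 3.58% in HFD+IPE mice, and that of the level in CPM was 16.3%, 27.6%, and 10.9%. For each of the 6 abundant mRNAs the share varied less than the level in every group, as for *mt-Nd4* in HFD mice with 1.66% against 29.6%.

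*mt-Cytb* was the only one of the 13 shares whose ND and HFD values did not overlap, and the only one for HFD+IPE versus ND. Shares sum to a fixed total, this one was singled out after all 13 were seen, and no test is given for it. In the fit scaled to the summed mRNA genes, its log2 fold change in HFD versus ND mice was -0.17, which did not pass the threshold over all genes. The ratio of *mt-Nd1*, the first mRNA gene of the plus strand, to *mt-Cytb*, its last, was 0.777, 0.748, 0.869, and 0.854 in ND mice 2, 5, 6, and 7. It was 0.897, 1.013, 1.085, and 1.108 in HFD mice 1 to 4 and 0.991, 0.956, 0.937, and 1.083 in HFD+IPE mice 1 to 4. Here, too, both HFD groups lay above all ND mice, and this ratio was likewise chosen after the values were seen. For the share and the ratio alike, both HFD groups were set against the same ND mice, so the second group is not an independent repeat.

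*mt-Nd6* varied among HFD mice, at 6.23, 3.13, 12.1, and 6.72 CPM in HFD mice 1 to 4, against 7.34, 9.10, 11.5, and 7.02 CPM in ND mice 2, 5, 6, and 7. The groups overlapped (log2 fold change -0.30 ± 0.37, adjusted p = 0.655). Per 1000 counts on the other 12 mRNA genes, *mt-Nd6* had 0.466 ± 0.046 counts in ND, 0.300 ± 0.126 in HFD, and 0.422 ± 0.121 in HFD+IPE mice. The values ran from 0.402 to 0.513 in ND and from 0.153 to 0.413 in HFD mice, so that 1 HFD mouse reached into the ND range. Reads of the opposite transcript placed on the wrong strand would be counted to *mt-Nd6*, and their number was not measured.

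*mt-Tw* was at 0.701, 1.19, 1.77, and 1.05 CPM in ND mice 2, 5, 6, and 7. It was at 1.79, 2.43, 2.71, and 6.95 CPM in HFD mice 1 to 4. In HFD+IPE mice 1 to 4 it was at 1.74, 1.54, 1.83, and 1.40 CPM. All HFD mice were above all ND mice, by a narrow margin between HFD mouse 1 and ND mouse 6 and a wide one for HFD mouse 4. It was the only one of the 20 genes tested whose ND and HFD groups did not overlap, where 13.6% of all genes tested did not overlap.

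The log2 fold change of *mt-Tw* in HFD versus ND mice was 1.55 ± 0.46, with an adjusted p of 0.0958 in edgeR (230 genes called in all) and of 0.0112 in DESeq2 (1933 called). Without HFD mouse 4 it was 0.98 (adjusted p = 0.212), and with the chromaffin marker score as a covariate it was 1.01 (0.701). Per 1000 counts on *mt-Nd2*, the gene that precedes it on the same strand, *mt-Tw* had 0.310 to 0.520 counts in ND, 0.556 to 1.54 in HFD, and 0.350 to 0.543 in HFD+IPE mice, with no overlap between ND and HFD mice. *mt-Ti* and *mt-Tm*, at fewer than 30 counts in each mouse, had log2 fold changes of 1.20 ± 0.56 and 0.78 ± 0.53 (adjusted p = 0.220 and 0.396), whereas *mt-Tt*, next to *mt-Cytb*, had -0.19 ± 0.31 (0.737). *mt-Ti* lies near the filter on low counts, so the size of its change is partly selected.

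**Figure D4:**
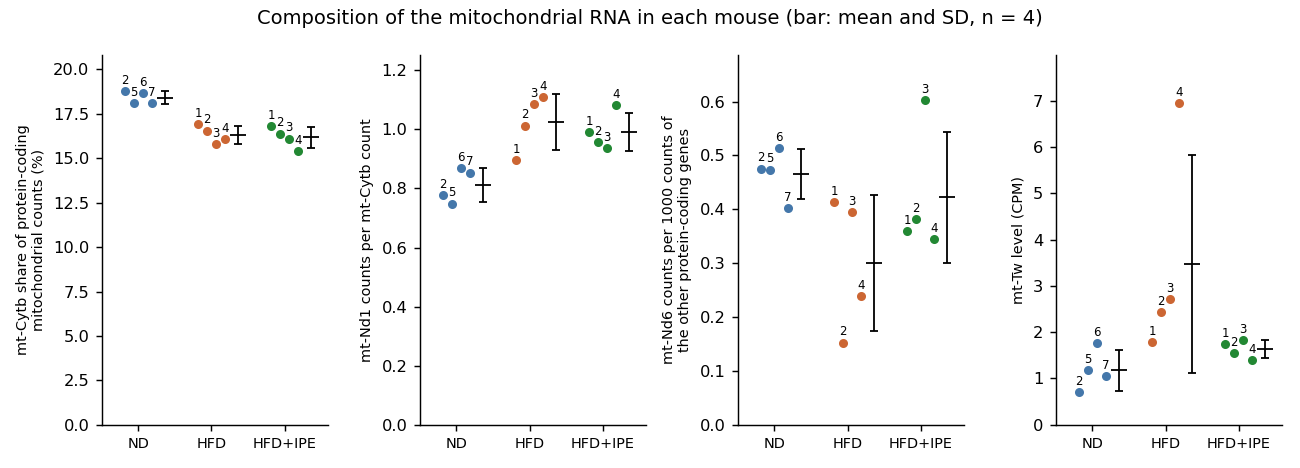
Share of *mt-Cytb* in the counts on mitochondrial protein-coding genes, counts of *mt-Nd1* per count of *mt-Cytb*, counts of *mt-Nd6* per 1000 counts of the other mRNA genes, and level of *mt-Tw* in each mouse (replicate number above each point, mean and SD of 4 mice beside each group). The ND mice lie above both HFD groups in the first panel and below both in the second, and HFD mouse 4 stands far above the rest in the last.

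Icosapent ethyl was compared with HFD alone to ask what the supplement changes on the same diet. None of the 21 mitochondrial genes tested passed the threshold, nor did any of the 15913 genes (0%), while DESeq2 called 7 genes, none of them mitochondrial. At an unadjusted p below 0.05 it was 1 of the 21, *mt-Tw*, against 1.39% of all genes. The median log2 fold change of the 13 mRNA genes was -0.14, against 0.004 over all genes, with 12 of the 13 below 0, 10 of the 13 with library totals. With the replicate number as a block, the median was -0.09 with 11 of the 13 below 0, with the chromaffin marker score as a covariate it was -0.01 with 7 of the 13 below 0, without HFD mouse 3 it was 0.02, and without HFD mouse 1 it was -0.33. In the same comparison the chromaffin markers had a median of 0.58 with 12 of 12 higher, the adrenocortical markers one of -0.14 with 10 of 10 lower, and the erythroid markers one of 0.16 with 5 of 5 higher. None of these markers passed the threshold, and their part in the mitochondrial values was not tested. No group pair was free of overlap among the 21 genes, where 1.09% of all genes tested did not overlap.

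*mt-Nd1* had a log2 fold change of -0.21 ± 0.26, *mt-Cytb* of -0.14 ± 0.20, *mt-Co1* of -0.09 ± 0.22, and *mt-Rnr2* of -0.23 ± 0.27 in HFD+IPE versus HFD mice, with an adjusted p of 0.9997 each. *mt-Nd6* was the only mRNA gene above 0, at 0.38 ± 0.41. *mt-Tw* had -1.09 ± 0.41 (adjusted p = 0.9997), and without HFD mouse 4 it had -0.51. *mt-Ti* had -1.09 ± 0.52 on far fewer counts. The change farthest from 0 was that of *mt-Tq* (glutamine), at 1.29 ± 0.66 on 1 to 19 counts per mouse (adjusted p = 0.9997), and *mt-Tp* (proline) had 0.24 ± 0.46. *mt-Ti* and *mt-Tq* lie near the filter on low counts. The filter removed *mt-Ti* in HFD+IPE versus ND mice and *mt-Tq* in both comparisons with ND mice. Passing it depends in part on the group with the higher counts, so the sizes of these changes are partly selected. Since this comparison and that of HFD with ND share the 4 HFD mice, opposite signs in them are not independent.

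Between HFD+IPE and ND mice, 0 of the 19 mitochondrial genes tested passed, as did 0 of all 15935 genes (0%). This comparison reuses the HFD+IPE and ND mice of the other comparisons and is not independent of them. DESeq2 called 413 genes and none of the mitochondrial ones. At an unadjusted p below 0.05 it was 1 of the 19, against 14.0% of all genes, and this was *mt-Tm*, with a log2 fold change of 0.75 ± 0.30 (adjusted p = 0.328). It was at 0.152, 0.324, 0.291, and 0.258 CPM in ND mice 2, 5, 6, and 7 and at 0.510, 0.445, 0.423, and 0.353 CPM in HFD+IPE mice 1 to 4. *mt-Tm* was also the 1 gene of the 19 whose groups did not overlap, against 7.73% of all genes tested. The median of the 13 mRNA genes was 0.09 against -0.0037 over all genes, with 8 above 0, without HFD+IPE mouse 3 it was -0.01, and without ND mouse 6 it was 0.25. *mt-Nd1*, *mt-Nd2*, and *mt-Nd5* had 0.31 ± 0.16, 0.30 ± 0.14, and 0.35 ± 0.18, and *mt-Cytb* had 0.03 ± 0.13.

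**Figure D5:**
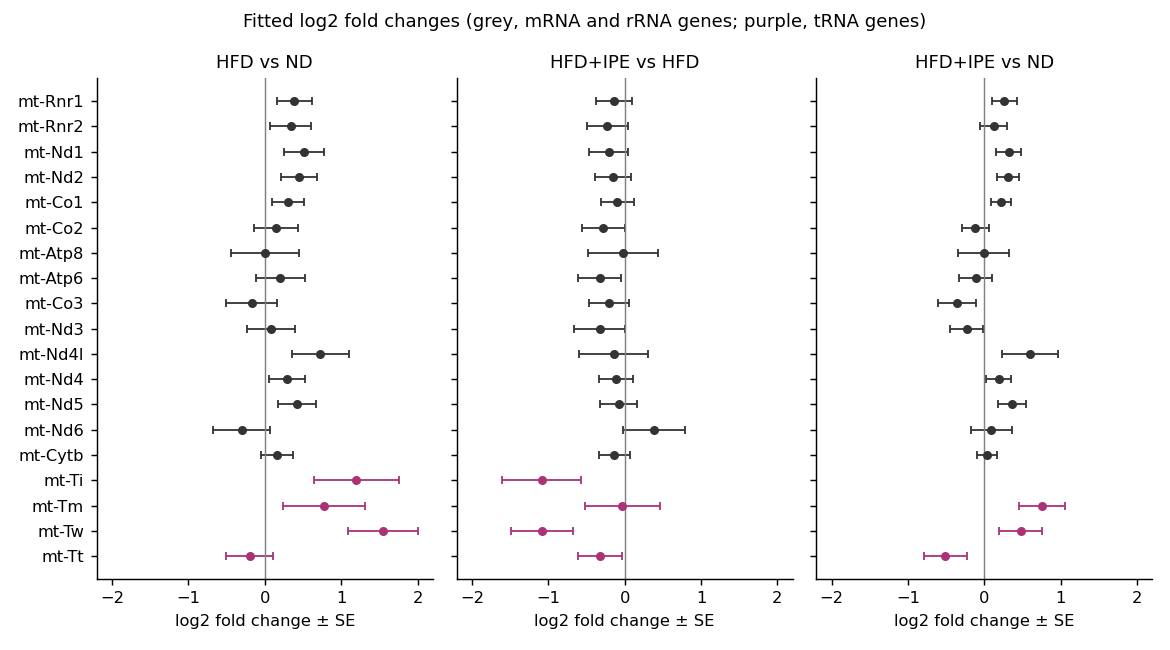
Fitted log2 fold changes with their SE for the 13 mRNA and 2 rRNA genes (grey) and 4 tRNA genes (purple) in the 3 comparisons, in genome order with the tRNA genes last. No adjusted p was below 0.05, and *mt-Tw* lies farthest from 0 in HFD versus ND mice at 1.55. *mt-Ti* was not tested in HFD+IPE versus ND mice.

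Nuclear genes whose products serve the mitochondrial genome were described as lists. Of 34 genes for its transcription and maintenance, 0 passed the threshold in HFD versus ND mice, 6 had an unadjusted p below 0.05 against 24.8% of all genes, and the median log2 fold change was 0.05. *Polrmt*, the mitochondrial RNA polymerase, was at 19.6 ± 4.2 CPM in ND, 26.2 ± 9.3 in HFD, and 26.7 ± 5.0 in HFD+IPE mice (log2 fold change in HFD versus ND mice 0.41 ± 0.27, adjusted p = 0.371). *Tfam*, which packs the genome and activates its promoters, had 0.05 ± 0.15, the elongation factor *Tefm* 0.44 ± 0.28, and *Mterf3* 0.05 ± 0.13. For replication, the polymerase *Polg* had 0.28 ± 0.12 (0.208) and the helicase *Twnk* 0.34 ± 0.30 (0.512). In HFD+IPE versus ND mice, *Polrmt* had 0.45 ± 0.19 (0.341).

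Of 46 genes for mitochondrial RNA processing and decay, 36 were above 0 with a median of 0.17, and 1 passed. This was *Ptcd3*, a protein of the mitochondrial ribosome, which rose from 55.1 ± 1.7 CPM in ND to 72.5 ± 4.2 CPM in HFD mice (log2 fold change 0.39 ± 0.07, adjusted p = 0.0400) and was at 67.6 ± 3.4 CPM in HFD+IPE mice. *Lrpprc*, which stabilizes the mRNAs, was at 70.3 ± 6.1 CPM in ND, 92.2 ± 5.7 in HFD, and 80.7 ± 8.1 in HFD+IPE mice, with no overlap between ND and HFD mice (0.39 ± 0.09, adjusted p = 0.0592), while its partner *Slirp* had -0.17 ± 0.13 (0.451). Of the 46 genes, 9 had no overlap between ND and HFD mice, where 13.6% of all genes tested had none. Among 33 translation factors and tRNA synthetases, 31 were above 0 with a median of 0.20, and 1 passed. *Mars2*, which loads methionine onto its tRNA, rose from 15.0 ± 0.9 to 23.1 ± 2.0 CPM (0.62 ± 0.11, adjusted p = 0.0400) and was at 19.8 ± 4.4 CPM in HFD+IPE mice. In the other 2 comparisons, no gene of these 3 lists passed. A share of 1 in 46 or 1 in 33 is near the 1.45% of all genes.

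The nuclear subunits of the same complexes did not pass the threshold either. In HFD versus ND mice, the median log2 fold change was -0.13 over 36 subunits of complex I with 8 above 0, 0.10 over 9 of complex III, -0.04 over 11 of complex IV, and -0.07 over 16 of complex V. The summed level of *mt-Nd1*, *mt-Nd2*, *mt-Nd4*, and *mt-Nd5*, relative to that of the nuclear complex I subunits, was 1.83 ± 0.35 in ND, 2.49 ± 0.60 in HFD, and 2.27 ± 0.24 in HFD+IPE mice, and its ranges overlapped. The low genes *mt-Nd3*, *mt-Nd4l*, and *mt-Nd6* were left out of it. The matching ratio was 1.92 ± 0.32, 2.002 ± 0.354, and 1.89 ± 0.13 for *mt-Cytb* in complex III, in the same order. For complex IV, with *mt-Co1* alone and without *mt-Co2* and *mt-Co3*, it was 2.96 ± 0.54, 3.67 ± 0.75, and 3.47 ± 0.46. These ratios compare summed counts without length.

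A list of nuclear noncoding RNAs was set beside the mitochondrial ones, and how total RNA was sampled was not tested. Of the 7 tested, 0 passed in HFD versus ND mice, 6 were below 0, and their median log2 fold change was -0.51. *Gm42418*, which overlaps an rRNA repeat, was at 4132 ± 369 CPM in ND and 2911 ± 798 CPM in HFD mice (-0.51 ± 0.21, adjusted p = 0.174). It was the only 1 of the 7 without overlap, where 13.6% of all genes tested did not overlap. *Gm26917* had -0.21, *Rn7sk* -0.62, *Rpph1* -0.66, *Rmrp* -0.79, *Malat1* -0.36, and *Neat1* 0.74, each with an adjusted p of 0.152 or more. Not all of them were abundant here: *Rn7sk*, *Rpph1*, and *Rmrp* were at 4.21 ± 1.03, 1.34 ± 0.55, and 1.26 ± 0.67 CPM in ND mice.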

How the data were processed

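The authors prepared strand-specific libraries from total RNA of each mouse (TruSeq Stranded Total RNA kit), sequenced them (the methods name paired-end libraries but give the reads as 1 × 75 bases, and single reads of 75 bases were assumed here), trimmed adaptors with cutadapt, aligned the reads to GRCm38 with STAR, and counted them on GENCODE M12 genes with HTSeq 0.6.1p1 in reverse-strand union mode with a minimum alignment quality of 20. They deposited raw counts per gene, 1 table for each of the 12 mice, with no normalization. Groups and mouse numbers were taken from the labels. Symbols, positions, and transcript sequences came from GENCODE M21 on GRCm38, and 49326 of 49585 identifiers matched.

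Library sizes were scaled by TMM, low genes were removed with filterByExpr (minimum count 10), and the groups were compared in pairs, 8 mice each, with edgeR 4.0.16 in R 4.3.3 (robust quasi-likelihood test, Benjamini-Hochberg adjustment over all genes tested, threshold 0.05). The procedure was tested on simulated counts. Each SE of a log2 fold change was taken as its absolute value divided by the square root of the F statistic of that test, so it restates the test. Nuclear copies were searched with BLAST+ 2.17.0 among annotated transcripts. A read was taken as countable to a gene if its 75 bases touched no other gene on that strand. Depth was 34785979 to 67295963 counts per mouse, and floors and counts carry counting error only.

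The 37 members, the pathway and marker lists, and the ratios were chosen with earlier results of these data known. All members are named, the tRNA genes by range except those with the highest levels. Of each pathway or marker list, genes past the threshold and *Polrmt*, *Tfam*, *Twnk*, *Polg*, *Lrpprc*, *Slirp*, *Tefm*, and *Mterf3* are named. *mt-Ti*, *mt-Tq*, and *mt-Tp* were named after their values were seen.

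Alternatives were DESeq2 1.42.0 (Wald test), DESeq2 size factors, library totals, library sizes without mitochondrial genes, other filters, all mice in 1 fit, chromaffin or adipocyte marker scores as covariates, scaling to the summed mitochondrial mRNA counts, leaving out each mouse, and, for HFD+IPE versus HFD mice, the replicate number as a block. The same alternatives for 4 tRNA genes were added after the data were seen. Deviations of same-numbered HFD and HFD+IPE mice, both numbered 1 to 4 in the labels, correlated over 16262 genes (r = 0.24, 0.12, 0.34, and 0.63). For HFD mice 1, 2, and 3, an HFD+IPE mouse with another number correlated more (r = 0.60, 0.44, and 0.37), and for HFD mouse 4 none did. Whether the numbers pair the mice is thus not known, and the block was used only as an alternative. ND and HFD mice share only the number 2.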

Additional observations from a re-analysis of the deposited data

Results flagged for a closer look

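In HFD+IPE mouse 3, *mt-Nd6* had 0.602 counts per 1000 counts on the other mitochondrial mRNA genes, whereas the other 3 mice of the group lay between 0.345 and 0.381. The gap to the nearest mouse was 0.859 of the range of the group, above Dixon's critical value for 4 values. Of 66 groups of 4 values looked at, this was the only such value, and chance alone gives about 1 in 20. The level of *mt-Nd6* itself was 14.4 CPM in that mouse and 7.04 to 8.42 CPM in the other 3.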

How the results depend on the processing

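With 4 mice per group, the spread between mice set the precision of the abundant genes. The tRNA genes and the 6 genes between *mt-Co1* and *mt-Nd4* were also limited by their counts. Directions below are those of genes that passed no threshold. In HFD versus ND mice, 230 genes passed, and the number was 1933 with DESeq2, 84 with library totals, 556 with all mice in 1 fit, 0 with the chromaffin and 2526 with the adipocyte marker score as a covariate, and 0 to 918 when 1 mouse was left out. In HFD+IPE versus HFD mice, it was 7 with DESeq2. In HFD+IPE versus ND mice, it was 413 with DESeq2, 2 with all mice in 1 fit, and 0 to 1 when 1 mouse was left out. The number of mitochondrial genes past the threshold became 1 with DESeq2 and with the adipocyte score in HFD versus ND mice. It was *mt-Tw*, at 1.57 and 1.65 on the log2 scale (adjusted p = 0.0112 and 0.0396 against 0.0545 to 0.701 under the other alternatives with all mice and 0.0539 to 0.212 when 1 mouse was left out). The adipocyte score averages 9 markers, of which 6 were higher and 3 lower in HFD versus ND mice. The mitochondrial share of counts in HFD+IPE mice, 2.48%, was 2.165% with the mRNA genes alone. The causes of these differences were not tested, except that the last leaves out genes.

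These log2 fold changes changed sign among the genes followed, which were the mRNA and rRNA genes, *mt-Ti*, *mt-Tm*, *mt-Tw*, and *mt-Tt*. With library totals, they were -0.128 (*mt-Atp8*) and -0.054 (*mt-Nd3*) in HFD versus ND, 0.067 (*mt-Tm*), 0.057 (*mt-Atp8*), and 0.0059 (*mt-Nd5*) in HFD+IPE versus HFD, and -0.020 (*mt-Cytb*) in HFD+IPE versus ND mice. *mt-Atp8* was at -0.0067 in HFD versus ND mice with at least 10 counts in every mouse, and at 0.0016 with DESeq2 and 0.127 with the adipocyte score in HFD+IPE versus ND mice. With the chromaffin score, they were -0.383 (*mt-Atp8*), -0.080 (*mt-Nd3*), and 0.191 (*mt-Nd6*) in HFD versus ND mice. In HFD+IPE versus HFD mice, they were then 0.033 (*mt-Rnr1*), 0.151 (*mt-Tm*), 9e-04 (*mt-Co1*), 0.210 (*mt-Atp8*), 0.0077 (*mt-Nd4*), 0.016 (*mt-Nd5*), and 0.176 (*mt-Nd4l*), and in HFD+IPE versus ND mice 0.026 (*mt-Co2*) and 0.143 (*mt-Atp6*). Scaling to the summed mRNA genes, which centres those genes by construction, gave -0.019 (*mt-Rnr2*), -0.0367 (*mt-Co1*), -0.220 (*mt-Co2*), -0.436 (*mt-Atp8*), -0.149 (*mt-Atp6*), -0.307 (*mt-Nd3*), -0.0366 (*mt-Nd4*), and -0.173 (*mt-Cytb*) in HFD versus ND mice. It gave 0.186 (*mt-Tm*), 0.025 (*mt-Co1*), 0.148 (*mt-Atp8*), 0.01 (*mt-Nd4*), 0.050 (*mt-Nd5*), and 0.0067 (*mt-Nd4l*) in HFD+IPE versus HFD, and -0.102 (*mt-Rnr2*), -0.012 (*mt-Co1*), -0.027 (*mt-Nd4*), -0.143 (*mt-Nd6*), and -0.186 (*mt-Cytb*) in HFD+IPE versus ND mice. With the replicate block, *mt-Tm* was at 0.091 and *mt-Atp8* at 0.050 in HFD+IPE versus HFD mice, and the block changed no call.

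Among the same genes, leaving out 1 mouse at a time turned the sign of 6 in HFD versus ND mice. Their ranges were -0.087 to 0.388 (*mt-Atp6*), -0.258 to 0.258 (*mt-Atp8*), -0.015 to 0.348 (*mt-Co2*), -0.424 to 0.062 (*mt-Co3*), -0.187 to 0.282 (*mt-Nd3*), and -0.392 to 0.016 (*mt-Tt*). In HFD+IPE versus HFD mice the ranges were -0.278 to 0.239 (*mt-Atp8*), -0.251 to 0.079 (*mt-Co1*), -0.360 to 0.051 (*mt-Co3*), -0.292 to 0.017 (*mt-Cytb*), -0.328 to 0.025 (*mt-Nd2*), -0.280 to 0.041 (*mt-Nd4*), -0.383 to 0.203 (*mt-Nd4l*), -0.242 to 0.113 (*mt-Nd5*), -0.302 to 0.0081 (*mt-Rnr1*), and -0.375 to 0.279 (*mt-Tm*), where HFD mouse 1 or 3 gave most of the ends. In HFD+IPE versus ND mice they were -0.223 to 0.063 (*mt-Atp6*), -0.203 to 0.225 (*mt-Atp8*), -0.191 to 0.0026 (*mt-Co2*), -0.045 to 0.140 (*mt-Cytb*), -0.201 to 0.247 (*mt-Nd6*), and -0.0025 to 0.274 (*mt-Rnr2*). The other values of the genes followed, 527 with all mice and 409 with 1 mouse left out, kept their sign and their side of the threshold. *mt-Tp* and *mt-Tq* were not among these genes. Leaving out 1 mouse also turned the sign of *mt-Tp*. It ranged from -0.364 to 0.162 in HFD versus ND, -0.061 to 0.513 in HFD+IPE versus HFD, and -0.157 to 0.300 in HFD+IPE versus ND mice.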
